A study of Mus musculus with 32 samples.

Results

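A set of 10 chemokine genes were followed in mouse epidermis, matched by symbol to the gene rows of the deposited count tables: Cxcl1, Cxcl2, Cxcl3, Cxcl5, Cxcl10, Cxcl14, Cxcl16, Ccl2, Ccl20 and Ccl27a. They are 10 of the 55401 genes in the files, and 9 of them were among the 15546 genes tested, Cxcl5 being the exception because it stayed under 1 cpm, the read count scaled to library size that is used as the level throughout, in every mouse. The RNA-seq libraries came from 32 hairless mice of a mixed SKH-1/SV129/BL6/J strain, aged 10 to 14 weeks, with 1 mouse per library. Mice labelled +/+ (WT) were compared with littermates labelled -/- (KO), which lack the nuclear receptor PPARbeta encoded by Ppard, in both sexes. For each genotype and sex, 1 group received a single UV dose of 120 mJ/cm2 and were sampled 24 h later, the other was of control mice handled without UV at time 0, and the dorsal epidermis was separated from the dermis. This gave 8 groups of 4 mice, and 8 mice per genotype and exposure with the sexes pooled.

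Chemokines are small secreted proteins that direct leukocytes along gradients by binding G protein-coupled receptors. Inflammatory chemokines are switched on in stressed keratinocytes and incoming leukocytes, in large part through NF-kappaB and interferon signalling, whereas homeostatic chemokines are made by resting epidermis and keep resident immune cells in place. Among the former, Cxcl1, Cxcl2, Cxcl3 and Cxcl5 attract neutrophils through Cxcr2, Cxcl10 attracts activated T cells through Cxcr3, Ccl2 attracts monocytes through Ccr2, and Ccl20 attracts Ccr6-bearing cells. Cxcl14 and Ccl27a, whose product draws Ccr10-bearing T cells to skin, are the homeostatic members, and Cxcl16 is a membrane-anchored ligand of Cxcr6 that can be shed.

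The libraries held between 22919428 and 40653581 reads on genes. Keratinocyte markers were abundant in every group, and their summed level over 6 genes ran from 62500 to 102000 cpm in KO control mice and from 23000 to 49500 cpm after UV. One library stood apart: replicate 2 of the KO females after UV carried 1980 cpm of 6 fibroblast markers, against 1.73 to 92.2 cpm in every other library, and 1680 cpm of 12 monocyte and macrophage markers. The UV responses of the members in KO, and several other results, are also given without it. Ppard itself read 87.3 to 105 cpm in WT and 70.3 to 88.9 cpm in KO control mice, and 252 to 326 against 175 to 239 cpm after UV. The gene was thus still read in KO mice, and the difference was called after UV (log2 -0.42 ± 0.07 SE, adjusted p = 0.00114) but not without UV (-0.26 ± 0.07, adjusted p = 0.156). Which exons the allele lacks is not given in the sources used here, so the count per gene cannot check the genotype label.

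Cxcl1, Cxcl2 and Cxcl3 lie in one cluster on chromosome 5 and gave the steepest UV responses of the tested members, so their promoter windows are shown, with that of Cxcl10, an inflammatory member on the same chromosome that did not pass the test. On GRCm38, Cxcl3 spans chr5:90786103-90789600, Cxcl1 chr5:90891241-90893115, Cxcl2 chr5:90903871-90905938 and Cxcl5 chr5:90759360-90761624, all on the plus strand, and Cxcl10 spans chr5:92346638-92348889 on the minus strand. Each window is 300 bases of RefSeq sequence (GRCm38.p6), 250 before and 50 after the annotated start, read 5′ to 3′ on the strand of the gene. Capitals mark matches on either strand to a kappa B-like core, GGNNNTTCC.
Cxcl1 (chr5:90890995-90891294, plus strand): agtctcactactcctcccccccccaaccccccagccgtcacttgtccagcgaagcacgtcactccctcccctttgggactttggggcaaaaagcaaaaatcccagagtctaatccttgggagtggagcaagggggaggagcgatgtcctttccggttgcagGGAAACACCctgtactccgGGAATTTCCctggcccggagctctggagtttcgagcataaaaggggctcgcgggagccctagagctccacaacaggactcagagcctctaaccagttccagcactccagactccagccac
Cxcl2 (chr5:90903649-90903948, plus strand): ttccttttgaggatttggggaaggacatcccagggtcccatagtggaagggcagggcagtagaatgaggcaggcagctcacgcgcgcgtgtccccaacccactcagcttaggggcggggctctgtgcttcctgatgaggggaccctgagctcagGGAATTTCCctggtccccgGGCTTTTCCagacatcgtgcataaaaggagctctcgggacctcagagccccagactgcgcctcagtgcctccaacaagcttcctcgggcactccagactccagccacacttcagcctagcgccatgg
Cxcl3 (chr5:90785851-90786150, plus strand): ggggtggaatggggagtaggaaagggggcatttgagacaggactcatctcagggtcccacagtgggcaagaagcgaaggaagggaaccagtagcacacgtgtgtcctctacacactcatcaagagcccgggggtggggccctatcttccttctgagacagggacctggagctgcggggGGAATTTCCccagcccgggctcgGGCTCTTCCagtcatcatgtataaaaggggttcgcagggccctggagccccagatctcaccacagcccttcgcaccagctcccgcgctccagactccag
Cxcl10 (chr5:92348840-92349139, minus strand): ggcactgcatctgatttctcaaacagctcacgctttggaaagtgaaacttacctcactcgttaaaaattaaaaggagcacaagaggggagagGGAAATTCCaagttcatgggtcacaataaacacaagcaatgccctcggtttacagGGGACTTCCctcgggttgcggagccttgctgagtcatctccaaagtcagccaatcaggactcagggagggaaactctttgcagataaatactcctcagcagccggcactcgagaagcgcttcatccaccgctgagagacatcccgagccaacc

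The core was found in 5 of the 7 members with a window in the RefSeq table (Cxcl1, Cxcl2, Cxcl3, Cxcl10 and Ccl20). Those 7 members had 9 windows, as Ccl27a had more than 1. Of all 32851 windows 18.5% held the core, a share of windows and not of genes. Cxcl1, Cxcl2 and Cxcl3 shared one identical match, ggaatttcc, which reads as a match on both strands, at 70, 96 and 72 bases before the start. Cxcl10 held a match at 158 and another at 103 bases before its start. An interferon response-like core, GAAANNGAA, was present in Cxcl10 and Cxcl14 (8.56% of all windows), an AP-1-like core, TGANTCA, in Cxcl10 and one Ccl27a window (7.81%), and TATAAA in Cxcl3 (13.6%). The 3 searched motifs other than the kappa B core were read on both strands too, and a match is a run of letters, not a measured site.

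UV exposure raised 6 of the 9 tested members and lowered 1 in WT mice, and it did the same in KO mice. Cxcl1, at most 0.802 cpm in control mice, was among the tested genes only through its UV mice. In WT, 34.5% of all genes tested were higher and 36.5% lower after UV (71% called in all, at a Benjamini-Hochberg adjusted p under 0.05 in edgeR's quasi-likelihood test), so a call alone says little about a gene here. In KO, 37.3% were higher and 33.5% lower (70.8% in all). The members leaned upward: their median log2 fold change was 2.06 in WT and 2.27 in KO, beside medians over all genes of -0.01 and 0.09. These are medians of signed changes, in which rises and falls cancel, so the sizes of change were not compared with those of all genes. Without the KO female library that stood apart, the KO log2 fold changes were 6.28 for Cxcl1, 5.79 for Cxcl2, 6.63 for Cxcl3, 2.24 for Ccl20, 3.26 for Ccl2, 1.19 for Cxcl16 and -1.22 for Ccl27a, and all 7 were still called. Over the 6 tested inflammatory members alone the medians were 3.44 and 4.52. In 5 members (Cxcl1, Cxcl2, Cxcl3, Cxcl16 and Ccl20) every UV mouse lay above every control mouse, in WT and again in KO, whereas 21.3% of all genes separated upward in WT and 18.6% in KO. No member separated downward, as 22.1% of all genes did in WT and 16.5% in KO.

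**Figure D1:**
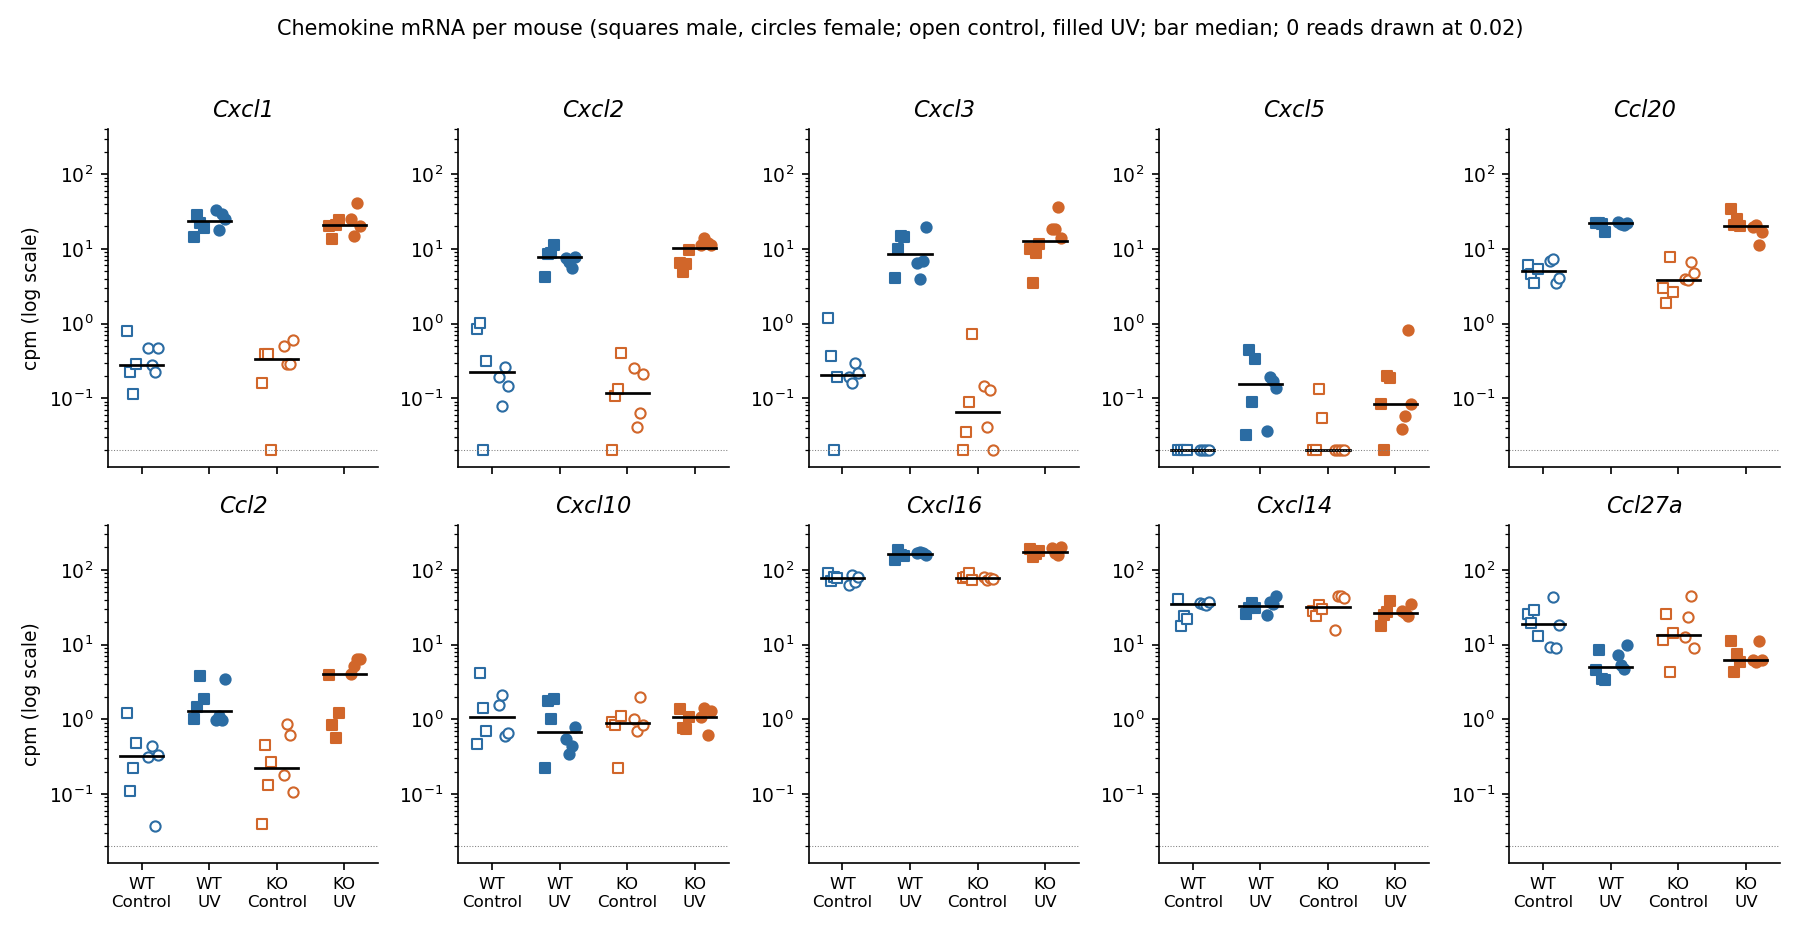
Level of each of the 10 chemokines in every mouse, in cpm on a log axis, by genotype and exposure. Squares are males, circles females, open symbols controls, filled symbols UV, and the bar is the median of 8 mice; mice with 0 reads are drawn at 0.02. Cxcl1, Cxcl2, Cxcl3, Cxcl16 and Ccl20 show no overlap between control and UV mice in either genotype.

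Cxcl1, the neutrophil attractant also known as KC, moved from near absence to a clear signal. In WT control mice it read 0.113 cpm in the lowest, 0.282 in the median and 0.802 in the highest mouse, and after UV 14.3, 23.7 and 33.4 cpm. In KO mice the control values were 0.0, 0.339 and 0.603 cpm, and the UV values 13.4, 20.6 and 40.7 cpm. The log2 fold change was 6.01 ± 0.37 (SE) in WT (adjusted p = 5.39e-14) and 6.17 ± 0.38 in KO (adjusted p = 5.3e-14), with n = 8 mice in each arm. The control values rest on 3 to 22 reads a mouse in WT and 0 to 17 in KO.

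Cxcl2, which shares the receptor Cxcr2, behaved the same way from a similarly low start. WT control mice lay between 0.0 and 1.03 cpm (median 0.225) and WT UV mice between 4.18 and 11.1 cpm (median 7.66). KO control mice lay between 0.0 and 0.402 cpm (median 0.119) and KO UV mice between 4.87 and 14.0 cpm (median 10.4). The log2 fold change was 4.60 ± 0.46 in WT (adjusted p = 8.65e-10) and 5.82 ± 0.49 in KO (adjusted p = 3.54e-11).

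Cxcl3, the third member of the cluster, also started near 0. It read 0.0 to 1.17 cpm (median 0.205) in WT control and 4.0 to 19.7 cpm (median 8.52) in WT UV mice. In KO mice it read 0.0 to 0.723 cpm (median 0.0644) in controls and 3.46 to 36.5 cpm (median 12.8) after UV. The log2 fold change was 5.03 ± 0.59 in WT (adjusted p = 1.69e-08) and 6.58 ± 0.65 in KO (adjusted p = 7.18e-10), and the control groups of both Cxcl2 and Cxcl3 rest on 0 to 32 reads a mouse. Without replicate 4 of the KO male controls, the KO control with the most Cxcl3, the KO value was 7.80.

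Cxcl5 was at the edge of detection. No WT control mouse had a read, whereas all 8 WT UV mice had 1 to 12 reads and 43 in total. Set against the limit that a count of 0 allows, 3 reads over the 8 control libraries or 0.0134 cpm, the pooled 0.179 cpm after UV was 13.4-fold higher. In KO, 2 of 8 control mice held 5 reads together and 7 of 8 UV mice held 43, of which 25 came from replicate 3 of the females. Fitted without a filter on low counts, the gene was called in WT (adjusted p = 0.00048) and in KO (adjusted p = 0.00612). The limit set for the WT controls covers counting error in the control reads alone, not in the UV reads, and not the spread between mice.

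Ccl20, the ligand of Ccr6, was already present in resting epidermis. WT control mice held 3.45 to 7.3 cpm (median 5.0) and WT UV mice 16.8 to 23.2 cpm (median 21.9), a narrow band around its median. KO control mice held 1.88 to 7.83 cpm (median 3.88) and KO UV mice 11.3 to 34 cpm (median 20.3). The log2 fold change was 2.06 ± 0.22 in WT (adjusted p = 4.47e-09) and 2.27 ± 0.23 in KO (adjusted p = 8.75e-10).

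Ccl2, the main monocyte attractant, rose with overlap between the groups. It read 0.037 to 1.2 cpm (median 0.323) in WT control and 0.981 to 3.83 cpm (median 1.29) in WT UV mice. In KO it read 0.04 to 0.857 cpm (median 0.224) in controls and 0.565 to 6.51 cpm (median 3.99) after UV. The log2 fold change was 2.28 ± 0.53 in WT (adjusted p = 0.00042) and 3.23 ± 0.55 in KO (adjusted p = 8.34e-06). Within groups Ccl2 deviated together with the summed Langerhans cell markers (Pearson r = 0.62 over 32 mice) and with the monocyte and macrophage markers (r = 0.52), and the part of those cells in the rise was not tested. In bulk epidermis, fewer or more cells of a type and less or more RNA per cell cannot be told apart.

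Cxcl10, an interferon-induced chemokine, was the inflammatory member that did not pass the test. It read 0.474 to 4.13 cpm (median 1.07) in WT control and 0.222 to 1.86 cpm (median 0.669) in WT UV mice, so the groups overlapped widely. In KO it read 0.22 to 1.98 cpm (median 0.885) and 0.623 to 1.42 cpm (median 1.08). The log2 difference was -0.83 with a 95% interval of -1.71 to 0.05 in WT (adjusted p = 0.084) and 0.15 with an interval of -0.73 to 1.02 in KO (adjusted p = 0.772). Without replicate 1 of the WT male controls the WT value was -0.99 and was called (adjusted p = 0.038). Cxcl10 lies wholly within the Art3 gene on the opposite strand (median 7.42 cpm), and whether the counting used strand is not given in the sources used here.

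Cxcl16 was the most abundant member and the steadiest between mice. WT control mice held 62.7 to 91.0 cpm (median 78.9) and WT UV mice 137 to 186 cpm (median 164). KO control mice held 72.7 to 90.9 cpm (median 78.6) and KO UV mice 149 to 204 cpm (median 176). The log2 fold change was 1.08 ± 0.07 in WT (adjusted p = 4.61e-13) and 1.16 ± 0.07 in KO (adjusted p = 1.26e-13).

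Of the 2 homeostatic members Ccl27a fell and Cxcl14 did not pass the test. Ccl27a read 9.0 to 43.9 cpm (median 18.9) in WT control and 3.32 to 9.91 cpm (median 5.03) in WT UV mice, with overlap at the edge of the groups. In KO it read 4.35 to 45.5 cpm (median 13.6) in controls and 4.26 to 11.3 cpm (median 6.2) after UV. It fell by 1.85 ± 0.38 on the log2 scale in WT (adjusted p = 8.43e-05) and by 1.29 ± 0.37 in KO (adjusted p = 0.0031). Its near-identical copies Ccl27b and Gm13306 held 2 and 3 reads over all mice, against 11825 for Ccl27a. Reads that align to several places were not assigned to any gene, so how many reads of Ccl27a were lost to the copies is not known.

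Cxcl14, which resting epidermis makes constitutively, did not pass the test in either genotype. WT control mice held 18.0 to 40.3 cpm (median 34.5) and WT UV mice 24.8 to 44.4 cpm (median 32.8). KO control mice held 15.7 to 45.1 cpm (median 32) and KO UV mice 18.0 to 38.5 cpm (median 26.8). The log2 difference was 0.11 with a 95% interval of -0.26 to 0.49 in WT (adjusted p = 0.598) and -0.23 with an interval of -0.61 to 0.14 in KO (adjusted p = 0.261). Without replicate 1 of the KO female controls, its lowest control, the KO value was -0.36 and was called (adjusted p = 0.0379).

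**Figure D2:**
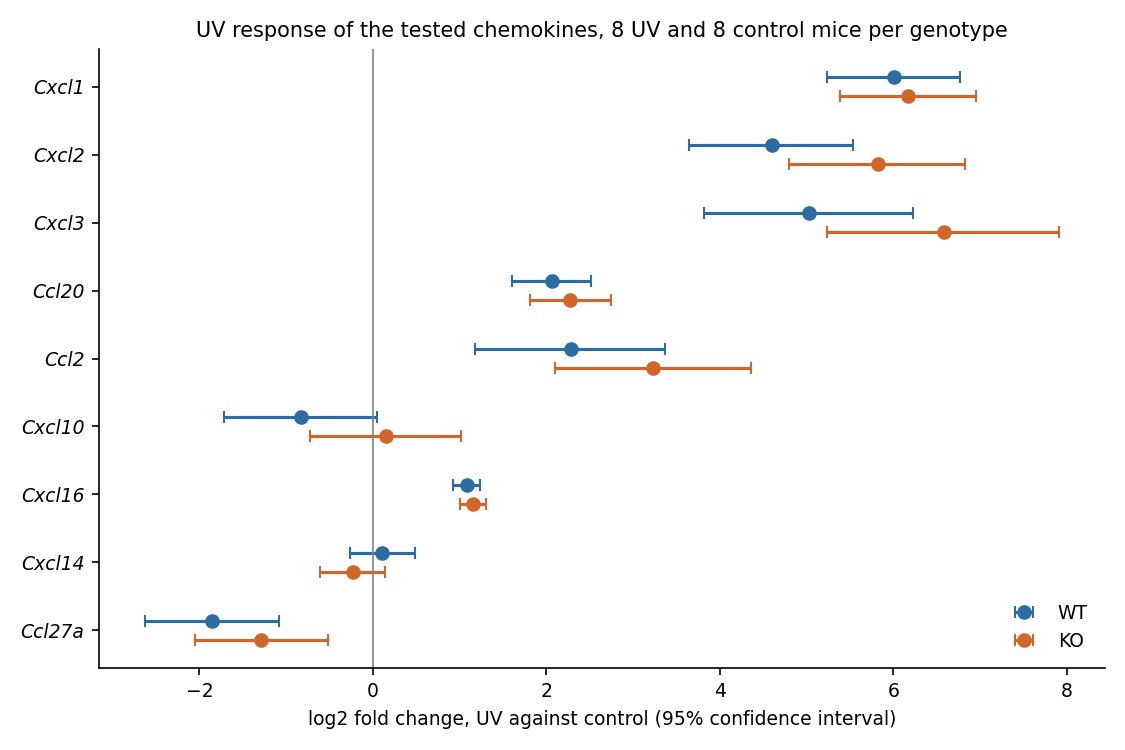
Log2 fold change of UV against control mice with its 95% confidence interval, in WT (blue) and KO (orange), for the 9 tested chemokines. Cxcl1, Cxcl2 and Cxcl3 lie between 4.60 and 6.58, Ccl27a lies below 0 in both genotypes, and the intervals of Cxcl10 and Cxcl14 include 0.

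Levels were compared between genes per length, as cpm per kilobase of the longest coding transcript. In WT control mice the order of medians was Cxcl16 (29.2), Ccl27a (22.4), Cxcl14 (18.9), Ccl20 (3.52), Cxcl10 (0.784), Ccl2 (0.397), Cxcl1 (0.296), Cxcl3 (0.202) and Cxcl2 (0.121). The range of Ccl27a (10.7 to 52.2) overlapped those of Cxcl16 (23.2 to 33.7) and Cxcl14 (9.88 to 22.1), which did not overlap each other, a gap separated Cxcl14 (9.88 at the lowest) from Ccl20 (5.15 at the highest), and each later neighbour overlapped the one before it. After UV in WT mice the order was Cxcl16 (60.7), Cxcl1 (24.9), Cxcl14 (17.9), Ccl20 (15.4), Cxcl3 (8.38), Ccl27a (5.97), Cxcl2 (4.12), Ccl2 (1.58) and Cxcl10 (0.495). The range of Cxcl1, 15.1 to 35.1, overlapped that of Cxcl14. This order depended on the length used: per kilobase of the union of all exons, the medians after UV were 17.9 for Cxcl14, 15.4 for Ccl20 and 12.7 for Cxcl1, and in control mice 18.9 for Cxcl14 and 7.95 for Ccl27a.

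Summed per length, the 7 inflammatory members made up 4.76 to 11.6% of the level of all 10 in WT control mice (median 7.95%) and 32.3 to 43.5% after UV (median 40.8%). In KO mice their share was 3.94 to 10.2% (median 6.25%) and 32.9 to 54.6% (median 39.8%). Cxcl14 and Ccl27a together went from a median of 53.1% to 17.1% in WT and from 51.5% to 15.5% in KO, while Cxcl16 held 38.2% and 43% in WT. The summed level of Cxcl14 and Ccl27a itself went from a median of 37.5 to 24.3 cpm per kilobase in WT and from 33.9 to 23.6 in KO. With the union of all exons as the length the inflammatory medians were 9.38% and 32.9% in WT.

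**Figure D3:**
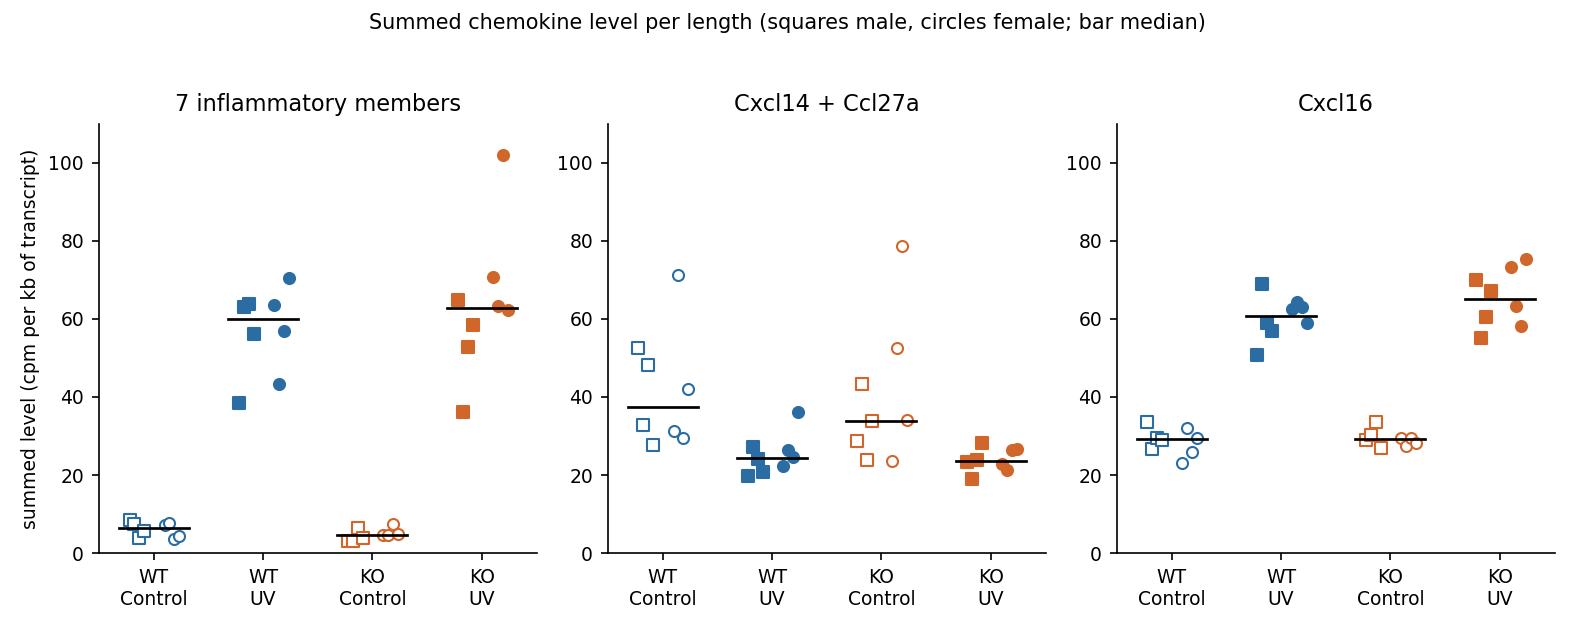
Summed level per kilobase of coding transcript in every mouse, for the 7 inflammatory members, for Cxcl14 with Ccl27a, and for Cxcl16, by genotype and exposure. Squares are males, circles females and bars medians; the inflammatory sum was 3.01 to 8.52 in control mice and 36.2 to 102 after UV.

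The UV responses were also fitted in each sex. In WT males (60.9% of all genes called) and WT females (61.3%) the same 7 members were called, as in KO females (60.7%). In KO males (61.7%) 6 were called, Ccl27a being the exception with a log2 difference of -0.95 (95% interval -2.02 to 0.12, adjusted p = 0.118). The difference in UV response between the sexes was called for none of the 9 members, as for 0.0% of all genes. Cxcl3 had an unadjusted p of 0.0396 for that difference (1.81 higher in females, log2, adjusted p = 0.698), and DESeq2 and limma-trend called no member.

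Among KO mice after UV the sexes were laid out differently for Cxcl3, Cxcl2 and Ccl2. Cxcl3 read 10.1, 3.46, 8.75 and 11.6 cpm in the males and 18.7, 18.5, 36.5 and 14.0 cpm in the females. Cxcl2 read 6.55, 4.87, 6.19 and 9.71 cpm in the males and 11.3, 14.0, 12.1 and 11.1 cpm in the females. All 4 females thus lay above all 4 males for both genes, while in WT UV mice the sexes overlapped. Ccl2 was laid out in the same way, with 4.0 to 6.51 cpm in the KO females and 0.565 to 3.98 cpm in the males. One of these 4 females was the library that stood apart, with 18.5 cpm of Cxcl3 and 14.0 cpm of Cxcl2. The share of all genes that separate the same mice by sex was not counted, so how unusual this layout is cannot be said. The sex difference in UV response within KO was 2.89 ± 1.26 for Cxcl3 (unadjusted p = 0.0303, adjusted p = 0.459) and 1.09 ± 0.94 for Cxcl2 (adjusted p = 0.794). It was 0.84 ± 1.07 for Ccl2 (adjusted p = 0.89) and, in the other direction, -0.87 ± 0.44 for Ccl20 (unadjusted p = 0.0582, adjusted p = 0.546). The monocyte and macrophage marker sum was 242 to 1680 cpm in these females and 132 to 275 cpm in the males. Langerhans cell markers summed to 472 to 932 against 278 to 310 cpm, T cell markers to 77 to 103 against 48.6 to 72.5 cpm and endothelial markers to 10.4 to 21.9 against 1.77 to 5.88 cpm. Neutrophil markers summed to 44.5 to 57.9 against 28.6 to 46.2 cpm, and keratinocyte markers to 23000 to 39100 against 37100 to 49500 cpm. The fibroblast, skeletal muscle and adipocyte sums overlapped between the sexes. The part of these cells in the values was not tested.

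Between genotypes no member was called. Without UV, KO differed from WT in 0.206% of all genes and in 0 of 9 members. An unadjusted p under 0.05 was reached there by 1324 of all 15546 genes and by 0 members. After UV the background was 3.31%, and again 0 of 9 members passed. An unadjusted p under 0.05 was reached after UV by 3121 of all 15546 genes and by 0 members. The 514 genes called after UV at the adjusted threshold moved with single mice. They were 133 without replicate 1 of the WT females after UV, 209 without the library that stood apart and 983 without replicate 2 of the KO males after UV. The largest of these differences after UV was that of Ccl2, 0.71 with a 95% interval of -0.30 to 1.72 (adjusted p = 0.446). For Cxcl16 the interval was narrow, -0.04 to 0.26 around 0.11, and for Cxcl1 it was -0.65 to 0.51 around -0.07. These tests pool the sexes, which were not laid out alike after UV. Cxcl2 read 11.1 to 14.0 cpm in KO and 5.57 to 7.77 cpm in WT females. In males it overlapped, with 4.87 to 9.71 cpm in KO (mean 6.83) and 4.18 to 11.1 cpm in WT (mean 8.13). Ccl2 read 4.0 to 6.51 cpm in KO and 0.981 to 3.52 cpm in WT females. In males it read 0.565 to 3.98 cpm in KO (mean 1.65) and 1.01 to 3.83 cpm in WT (mean 2.04). The share of all genes that separate KO from WT females after UV was not counted. The genotypes were not tested against each other within a sex after UV, and the genotype difference in UV response among females was not called for Cxcl2 (adjusted p = 0.638) or Ccl2 (adjusted p = 0.668).

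The test of the difference in UV response between genotypes, called for 0.765% of all genes, also passed for 0 of 9 members. An unadjusted p under 0.05 was reached in it by 3042 of all 15546 genes and by 0 members. Cxcl3 rose by 1.55 more in KO on the log2 scale (95% interval -0.17 to 3.28, adjusted p = 0.311) and Cxcl2 by 1.22 more (-0.09 to 2.53, adjusted p = 0.29), values that the test did not separate from 0. Neither DESeq2 nor limma-trend called a member in these comparisons. Without the KO female library that stood apart the values were 1.56 and 1.15. Over all alternatives that of Cxcl3 ran from 0.96, without replicate 1 of the WT male controls, to 2.76, without replicate 4 of the KO male controls (adjusted p = 0.113 at the lowest), and that of Cxcl2 from 0.97 to 1.74.

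The receptors of the members were mostly weakly expressed. Of 7, 4 were tested. Ccr2, the Ccl2 receptor, rose in WT (log2 1.35 ± 0.44, adjusted p = 0.00738) and in KO (2.66 ± 0.45, adjusted p = 7.17e-06, and 2.30 without the library that stood apart). Cxcr2, the receptor of Cxcl1, Cxcl2, Cxcl3 and Cxcl5, read 17.9 to 41.9 cpm in WT control and 18.3 to 41.1 cpm in WT UV mice (log2 0.03, adjusted p = 0.914), and it fell by 0.68 ± 0.21 in KO (adjusted p = 0.00526). Cxcr6, the Cxcl16 receptor, fell by 0.94 ± 0.29 in WT (adjusted p = 0.00548) and was -0.30 in KO (adjusted p = 0.366). Cxcr3 did not pass in either genotype (adjusted p = 0.217 and 0.0604), and 128 of its reads came from the library that stood apart. Ccr6, Ccr10 and Cxcr1 stayed under 1 cpm, with at most 26, 9 and 20 reads in a mouse.

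Of 9 neutrophil markers 5 were tested, and 3 rose in WT (Csf3r, Trem1 and Mmp8), while 4 rose (Retnlg as well) and Cxcr2 fell in KO. A gene was tested if it reached 1 cpm in any mouse, so one near 0 in controls could enter through UV mice alone. Counts of rises among tested genes, here and in the other lists, are tilted upward by this. Csf3r, the receptor of a granulocyte growth factor, had a median of 0.679 cpm in WT control and 5.23 cpm in WT UV mice (log2 2.77 ± 0.49, adjusted p = 1.44e-05). Trem1, a receptor of myeloid cells, had medians of 0.115 and 2.96 cpm (3.96 ± 0.44, adjusted p = 6.81e-09). Ly6g, a defining mouse neutrophil gene, had 0 reads in all control mice, at most 3 in WT UV and at most 9 in KO UV mice, and Camp had at most 3 reads in any mouse. The sum of the 9 was 18.7 to 42.3 cpm in WT control and 29.3 to 48.2 cpm in WT UV mice, most of it Cxcr2. Monocyte and macrophage markers summed to 49.7 to 112 cpm in WT control and 130 to 248 cpm in WT UV mice, and 8 of 12 rose while 1 fell. T cell markers summed to 116 to 238 cpm and 33.1 to 92.3 cpm in the same groups, and 6 of 8 fell while 1 rose. Langerhans cell markers summed to 483 to 1070 cpm and 252 to 403 cpm, and 6 of 7 fell. The part of these cells in the chemokine values was not tested.

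Other chemokines split in both directions. Of 10 further CXC, CX3C and XC ligands 7 were tested, and 2 rose and 3 fell in WT (median log2 -0.73). Pf4 and Ppbp, the platelet-associated ligands, rose: Pf4 from a median of 0.0384 to 4.4 cpm in WT (adjusted p = 1.63e-07) and from 0.119 to 17.3 cpm in KO (adjusted p = 1e-08). Cxcl9, an interferon-induced ligand of Cxcr3, fell by 2.21 ± 0.48 in WT (adjusted p = 0.000181) and by 1.38 ± 0.48 in KO (adjusted p = 0.0131), and Xcl1 fell in both. In KO 3 rose and 3 fell (median 0.78), or 2 and 3 of 6 tested without the library that stood apart (median -0.74).

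Of 19 further CC ligands 13 were tested, and 4 rose and 4 fell in WT (median 0.25). The 4 that rose, Ccl3, Ccl4, Ccl7 and Ccl9, attract monocytes and other myeloid cells, and their log2 fold changes in WT were 3.33, 3.0, 3.23 and 2.80. They rose in KO too, by 4.55, 5.24, 3.79 and 4.56, the last being 3.91 without the library that stood apart. Ccl22 and Ccl1 fell in both genotypes. In KO 8 rose and 2 fell, or 6 and 3 without the library that stood apart, where Ccl24 and Ccl6 were no longer called (adjusted p = 0.488 and 0.432). The difference between genotypes passed for none of the ligands.

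**Figure D4:**
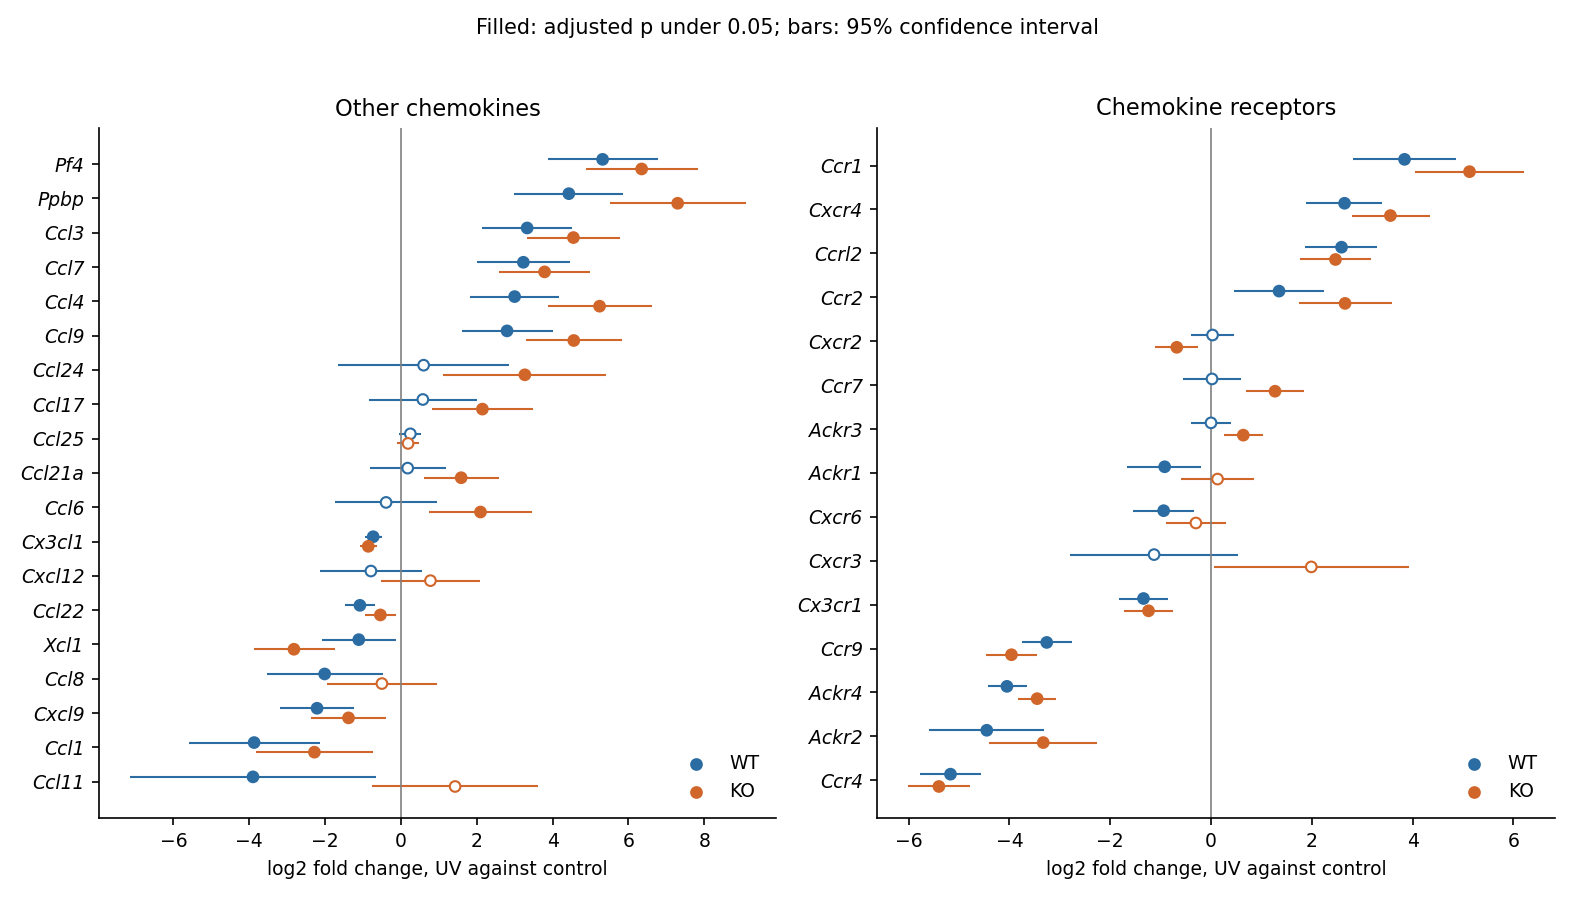
Log2 fold change of UV against control mice with its 95% confidence interval for other chemokines (left) and receptors (right) among those tested, in WT (blue) and KO (orange). Filled points have an adjusted p under 0.05; Cxcl13 is not drawn because no interval could be given for it in WT. Pf4, Ppbp, Ccl3, Ccl4, Ccl7 and Ccl9 lie above 0 and Ccr4, Ackr2 and Ackr4 below 0 in both genotypes.

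Among 11 other signalling receptors 7 were tested. Ccr1 and Cxcr4 rose in WT, by 3.84 and 2.65 on the log2 scale, and in KO. Ccr4, found on skin-homing T cells, fell from a median of 28 to 0.618 cpm in WT and from 34.7 to 0.627 cpm in KO, and Ccr9 and Cx3cr1 fell as well. Of the 5 atypical receptors, which bind or scavenge chemokines without directing migration, Ackr2 fell by 4.45 and Ackr4 by 4.05 in WT, while Ccrl2 rose by 2.59. The same 3 moved in the same direction in KO, by -3.33, -3.45 and 2.47, and Ackr2 by -4.10 without the library that stood apart.

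The cytokines that induce the inflammatory members were measured beside them. Of 12, 6 were tested, and 3 rose and 1 fell in WT (median log2 0.31), whereas 2 rose and 3 fell in KO (median -0.12). Il1b rose from a median of 1.96 to 18.7 cpm in WT (adjusted p = 2.04e-09) and from 1.6 to 39.5 cpm in KO (adjusted p = 2.07e-11), and Tnf rose from 2.99 to 15.6 cpm and from 3.37 to 15.1 cpm. Among 9 receptor genes for these cytokines, Il1r1 fell by 2.13 ± 0.13 in WT and Il17ra rose by 1.29 ± 0.08. Of 6 genes of mRNA decay and NF-kappaB feedback all 6 rose in WT and 4 in KO, with Zfp36, whose product destabilises many cytokine mRNAs, at 2.28 ± 0.13 in WT and 2.12 ± 0.13 in KO. Among 6 genes of shedding, cleavage and retention, the protease Mmp9 differed in UV response between genotypes (1.66 ± 0.39, adjusted p = 0.0385), a call that was lost without the library that stood apart (1.64, adjusted p = 0.0515). Without that library, Mmp9 was called for KO minus WT after UV (log2 1.25, adjusted p = 0.0321).

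Within groups the members did not vary as one set. Deviations from the 8 group means were compared over 32 mice, and Cxcl2 and Cxcl3 were the most alike pair (Pearson r = 0.76), followed by Ccl2 and Ccl27a (0.50) and Cxcl3 and Ccl2 (0.41). Cxcl1, in the same cluster, had r = 0.16 with Cxcl2 and 0.02 with Cxcl3. Among 10116 other genes with a mean of at least 5 cpm, the closest to Ccl27a was Galt (0.87), to Ccl2 Gch1 (0.82), to Cxcl14 Srprb (0.80), to Cxcl16 Crb3 (0.76), to Cxcl2 Ap1m1 (0.74), to Cxcl1 Mphosph6 (0.72), to Cxcl3 Lilr4b (0.72), to Ccl20 4930523C07Rik (0.70) and to Cxcl10 Il1b (0.67). The points share library and depth, low-count genes are noisier, and the values are descriptions.

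**Figure D5:**
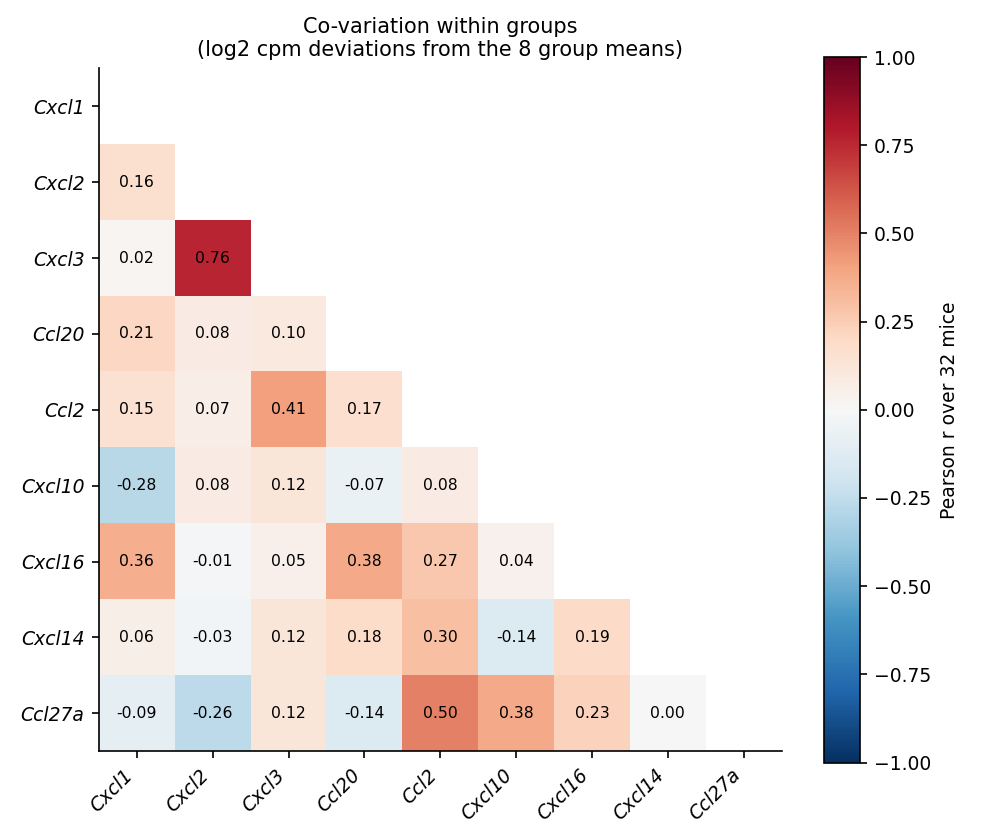
Pearson r between pairs of the 9 tested chemokines over 32 mice, computed on log2 cpm after the mean of each of the 8 groups was taken away. Cxcl2 with Cxcl3 is the highest pair at 0.76 and Cxcl1 with Cxcl10 the lowest at -0.28.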

How the data were processed

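RNA-seq was measured in the epidermis of 32 mice. The authors trimmed reads with Cutadapt (1.8), aligned them with STAR (2.5.3a) and counted them per gene with HTSeq (0.9.1), and deposited whole-number counts per mouse, with GRCm38 named in the labels; whether strand was used in counting is not given in the sources used here. Reads outside genes (6.8 to 9.75%) or in several genes (1.28 to 1.56%) stayed out. Symbols and coordinates came from GENCODE M21, and 3 list symbols were matched through RefSeq synonyms. Genes reaching 1 cpm in at least 1 mouse were fitted with edgeR's quasi-likelihood test (edgeR 4.0.16, R 4.3.3) after TMM normalization, with all 32 mice and 8 group means, and p-values were adjusted by Benjamini-Hochberg over all 15546 genes. Printed cpm are TMM-scaled. Alternatives were RLE normalization, DESeq2 (1.42.0), limma-trend (3.58.1), other count filters, 1 genotype alone, and each mouse left out. The fits were tested on simulated data. The 10 members were named in every comparison. From each further list, genes with an adjusted p under 0.05 and a log2 change over 1 in either genotype could be named, at most 6 by smallest p, and receptors of the members and Ppard in any case. One gene of the receptor lists is not reported here. The members and lists were chosen with earlier results of these data known. Mice are separate animals, so the error is that between animals.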

Additional observations from a re-analysis of the deposited data

Results flagged for a closer look

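In 6 of the 77 groups of 4 mice examined, the highest or lowest mouse lay far from the other 3, by Dixon's criterion, which flags about 1 group in 20 by chance. Cxcl3 read 0.723 cpm in replicate 4 of the KO male controls, against 0.0 to 0.0879 cpm in the others. Cxcl5 read 0.82 cpm in replicate 3 of the KO females after UV, against 0.0389 to 0.0835 cpm. Cxcl14 read 15.7 cpm in replicate 1 of the KO female controls, against 42.4 to 45.1 cpm. Ccl2 read 3.52 cpm in replicate 4 of the WT females after UV, against 0.981 to 1.12 cpm. Ccl20 read 16.8 cpm in replicate 4 of the WT males after UV, against 21.6 to 22.3 cpm. Ccl27a read 11.2 cpm in replicate 3 of the KO females after UV, against 5.85 to 6.26 cpm.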

How the results depend on the processing

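The number of members called was 7 after UV in WT and in KO under RLE normalization, DESeq2, limma-trend, filterByExpr and a single genotype, and 8 with no filter on low counts, which brought in Cxcl5. With 1 mouse left out at a time it was 7 to 8, being 8 in WT without replicate 1 of the WT male controls (Cxcl10) and in KO without replicate 1 of the KO female controls (Cxcl14). It was 0 in the comparisons between genotypes, in genotype by UV and in sex by UV under every one of these that applied. In the fit of KO mice alone, Cxcl1, Cxcl2, Cxcl3 and Ccl2 reached 1 cpm only in UV mice. Their highest KO controls read 0.603, 0.402, 0.723 and 0.857 cpm. In the fit of WT mice alone the same held for Cxcl1 (0.802 cpm). These calls are thus of genes that entered through the group where they are high. Of 2022 alternative values of single members, 1998 kept their direction and their side of the threshold, 2 came to be called, and 22 changed sign, none of them a called value. With 1 mouse left out at a time, Cxcl1 ran from -0.45 to 0.14 for KO minus WT without UV, from -0.24 to 0.01 after UV, from -0.21 to 0.38 for genotype by UV and from -0.50 to 0.11 for sex by UV. Ccl27a ran from -0.53 to 0.12 for KO minus WT without UV and from -0.28 to 0.31 for sex by UV, where limma-trend gave 0.13. Ccl2 ran from -0.53 to 0.19 and Cxcl16 from -0.0 to 0.07 without UV, Ccl20 from -0.18 to 0.02 for KO minus WT after UV, and Cxcl10 from -0.04 to 0.37 for UV in KO, and the cause was not tested. Over all genes, DESeq2 called 792 for genotype by UV and 1116 for KO minus WT after UV, against 119 and 514 in edgeR, limma-trend called 260 for the latter, and without a filter edgeR called 55 and 263. For KO minus WT without UV DESeq2 called 78 against 32, and for sex by UV 22 against 0. With 1 mouse left out at a time, edgeR called 133 to 983 genes for KO minus WT after UV, 56 (without replicate 4 of the WT male controls) to 346 (without replicate 2 of the KO males after UV) for genotype by UV, 20 to 45 for KO minus WT without UV and 0 to 1 for sex by UV. Summing Ccl27a with its copies changed no call. No paired analysis was possible because the labels give mouse numbers that mark separate animals and pair none across groups. Depth limits Cxcl5 and the control levels of Cxcl1, Cxcl2, Cxcl3 and Ccl2.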
